A study of Mus musculus with 24 samples.

Results

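The 8 genes described here are negative regulators of ERK signalling: the MAPK phosphatase genes Dusp1, Dusp4, Dusp5 and Dusp6, the Sprouty genes Spry2 and Spry4, and the Sprouty-related genes Spred1 and Spred2. They were taken by name from the 47069 gene identifiers of the count files. The choice was made with earlier results of these data known, and relatives outside the list are given below. All 8 had enough counts to be tested in every comparison. The data are RNA sequencing counts from hippocampi of 2 to 4 months old male mice, in 18 libraries, 3 per group, each made from the pooled tissue of 3 mice. One set of mice carried the null allele of Kdm5c, an X-linked gene for a demethylase of histone H3 lysine 4, on a mixed C57/129 F1 background. Its 4 groups were Kdm5c -/- (KO) mice after 1 h of novelty, KO mice left untreated, wild-type (WT) mice after 1 h of novelty and WT mice left untreated. For novelty, a mouse was put alone for 1 h into an unfamiliar box with tubes and toys. The other set, on a pure C57BL/6J background, compared ifKO with control mice, both untreated. The ifKO mice carried floxed Kdm5c and the tamoxifen-dependent recombinase CaMKIIα-creERT2, whose promoter is active in forebrain excitatory neurons, so that other cells kept the gene. The sources used here do not give whether Cre or tamoxifen was also present in the control mice.

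ERK is the last kinase of a cascade that runs from receptor tyrosine kinases or calcium entry through Ras, Raf and MEK, and in hippocampal neurons it is switched on by synaptic activity and takes part in memory formation. Its output includes its own brakes. The dual-specificity phosphatases remove the activating phosphates from MAP kinases, whereas Sprouty and Spred proteins act upstream, between receptor and Raf. Transcripts of several of these genes rise soon after stimulation, together with immediate early genes such as Fos and Egr1.

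The libraries held between 16 M and 45.6 M counts in genes. Markers of hippocampal excitatory neurons, such as Slc17a7 and Neurod6, summed to 6584 to 8940 CPM (counts scaled to the effective library size) in the 18 libraries, and no marker of that list was at 0. Over the whole gene, Kdm5c had 77.8 to 86.5 CPM in KO libraries after novelty and 75.4 to 76.3 CPM in untreated KO libraries, against 90.2 to 100.04 CPM in WT libraries after novelty and 74.2 to 76.4 CPM in untreated WT libraries. In the inducible line it had 63.6 to 69.0 CPM in ifKO libraries and 62.1 to 67.5 CPM in control libraries. The mutant alleles lack only some exons, so counts over the whole gene do not check the genotype labels. A few libraries stood apart. WT untreated library 1 had the lowest mean level of 18 immediate early genes in the KO line, at 4.12 log2 CPM, against 5.01 and 4.77 in the other untreated WT libraries. Choroid plexus markers summed to 626 CPM in KO untreated library 2 and to 400.4 CPM in control library 1, against 36.4 to 81.1 CPM in the other 16 libraries. WT novelty library 1 and KO novelty library 2 were known from earlier results of these data to stand apart from their groups, and values without both are given where they change a result. All p-values below measure the spread between pools of 3 mice, and in bulk tissue fewer expressing cells and less RNA per cell cannot be told apart.

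Levels were set per kilobase of all annotated exons of a gene, for a rough comparison between genes. Which of these exons the tissue uses was not tested. On this scale Dusp6 and Spred1 were the most abundant members after novelty in WT, with means of 24.3 ± 2.1 and 22.3 ± 4.4 CPM per kb (SD, n = 3). Spred2 had 19.7 ± 0.7 CPM per kb and Spry2 17.8 ± 0.3 CPM per kb in the same libraries. Dusp5 lay in the middle at 12.4 ± 0.7 CPM per kb. Dusp1, at 8.76 ± 1.58 CPM per kb, and Dusp4, at 8.61 ± 0.82 CPM per kb, were lower, and Spry4, at 4.31 ± 0.28 CPM per kb, was the lowest. The span over the 12 libraries of the KO line also differed: the highest library had 3.18 times the CPM of the lowest for Dusp1, 2.52 times for Dusp5 and 2.18 times for Dusp6, but only 1.24 times for Spred2. All 8 members are shown by library in the plot of CPM in 6 groups.

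**Figure D1:**
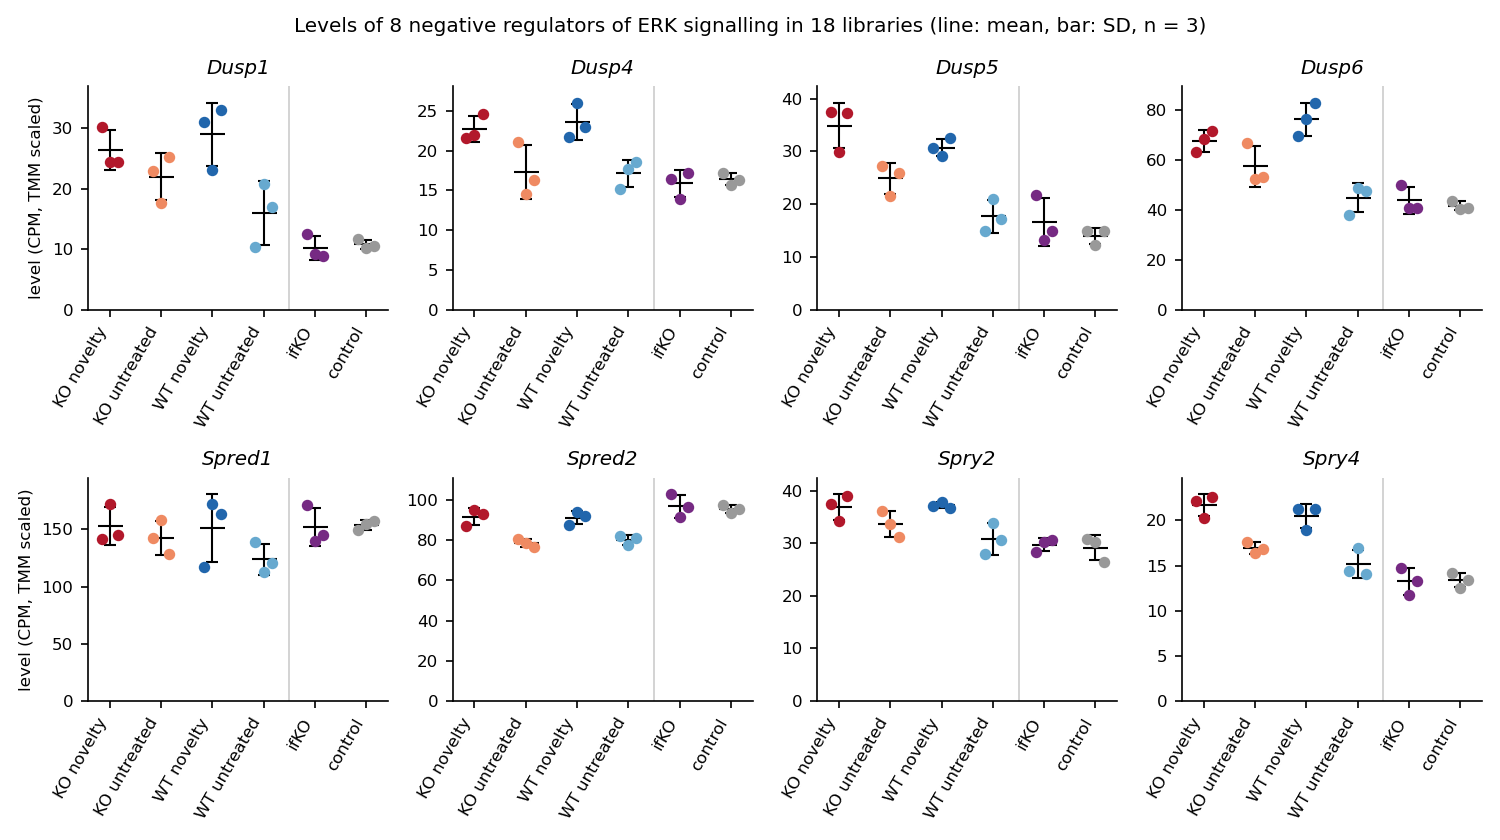
Level of each member in CPM (TMM scaled; vertical axis from 0) in the 18 libraries. Each point is a library, the line is the group mean and the bar its SD (n = 3); a grey line parts the KO line from the inducible line, which was sequenced separately. All members but Spred1 were higher in all 3 WT novelty libraries than in all 3 untreated WT libraries, as were 8.30% of all genes. In the inducible line, ifKO and control libraries overlapped for every member.

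After 1 h of novelty all 8 members had higher mean levels in both genotypes, and the calls of the ERK phosphatases Dusp5 and Dusp6 and of the Sprouty gene Spry4 were the most stable. With both genotypes in 1 contrast, so that 6 novelty libraries stood against 6 untreated ones, 5 of 8 members rose by edgeR's quasi-likelihood test, while 1.07% of all genes were called higher. A gene was called at an adjusted p under 0.05, with Benjamini-Hochberg adjustment over 16392 genes. Dusp5 rose by 0.64 ± 0.09 (SE) on the log2 scale, with an adjusted p of 0.00314 by edgeR. Dusp6 rose by 0.50 ± 0.08 and Spry4 by 0.39 ± 0.06, both with an adjusted p of 0.00701 by edgeR. Less stable rises were found for Spred2, by 0.20 ± 0.04 (adjusted p of 0.0341), and Dusp4, by 0.42 ± 0.09 (0.0460).

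The calls of Dusp5, Dusp6 and Spry4 over both genotypes held in all 19 alternative settings, including the omission of each of the 12 libraries in turn. Those of Dusp4 and Spred2 held in 8 and 6 of the 19. The Dusp4 call ended when any 1 of 10 libraries was left out and the Spred2 call when any 1 of 11 was, with adjusted p of up to 0.139 and 0.135 by edgeR. Dusp1 (0.55 ± 0.15, adjusted p of 0.0900), Spry2 (0.20 ± 0.06, 0.126) and Spred1 (0.20 ± 0.09, 0.402) were not called by edgeR. Dusp1 was called in 3 of the 19 settings, among them DESeq2 with an adjusted p of 0.0128. Spry2 and Spred1 were each called in 1, with offsets for GC content and length.

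In KO mice alone, 0 of the 8 members were called after novelty by edgeR and by DESeq2, whereas edgeR called 0.110% of all genes higher. The 8 log2 fold changes were nonetheless above 0, as for 51.5% of all genes, and their median was 0.25, against 0.00 for all genes. By unadjusted p under 0.05, 4 members were higher in KO novelty, namely Dusp4, Dusp5, Spred2 and Spry4, against 3.70% of all genes. In the same 4 the novelty libraries lay wholly above the untreated libraries, which held for 8.60% of all genes.

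In WT mice alone, 2 of the 8 members rose, Dusp5 and Dusp6, both phosphatases known to act on ERK rather than on the other MAP kinases, and 0.348% of all genes were called higher. All 8 log2 fold changes were above 0, against 49.3% of all genes, with a median of 0.44 against -0.00 for all genes. All 8 had an unadjusted p under 0.05 in the direction of higher levels, against 5.63% of all genes. In 7 of them, all but Spred1, every novelty library lay above every untreated library, which held for 8.30% of all genes.

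Among the phosphatases, Dusp6, the cytoplasmic ERK phosphatase, had 62.9, 68.3 and 71.3 CPM in KO novelty libraries, against 66.7, 52.3 and 53.0 CPM in untreated KO libraries. The groups overlapped, since KO untreated library 1 exceeded KO novelty library 1. The log2 fold change in KO was 0.23 ± 0.11, with an adjusted p of 0.755 by edgeR. In WT mice the same gene had 69.6, 76.4 and 82.8 CPM after novelty, against 38, 48.5 and 47.5 CPM untreated. Here the groups were far apart, with the lowest novelty library well above the highest untreated one. The log2 fold change in WT was 0.77 ± 0.11, a 1.70-fold rise, with an adjusted p of 0.0149 by edgeR. Ordered by mean, Dusp6 was highest in WT novelty, then KO novelty, KO untreated and WT untreated, and of these neighbours only KO untreated and WT untreated did not overlap.

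Dusp5, a nuclear phosphatase specific for ERK, had 37.5, 29.9 and 37.4 CPM in KO novelty libraries, against 27.2, 21.5 and 26.0 CPM in untreated KO libraries. All KO novelty libraries lay above all untreated ones, but the change of 0.49 ± 0.13 on the log2 scale had an adjusted p of 0.303 by edgeR. In WT mice Dusp5 had 30.6, 29.1 and 32.5 CPM after novelty, against 14.9, 21 and 17.1 CPM untreated. The WT groups did not overlap either. The log2 fold change in WT was 0.79 ± 0.13, a 1.73-fold rise, with an adjusted p of 0.0234 by edgeR. Dusp5 was highest in KO novelty, followed by WT novelty, KO untreated and WT untreated. The first pair overlapped, and the other neighbouring groups did not.

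Unlike those over both genotypes, the WT calls of Dusp5 and Dusp6 depended on single libraries. WT untreated library 1 had the lowest Dusp1, Dusp5, Dusp6 and Spry2 of the 12 libraries. Without it the log2 fold changes in WT were 0.69 for Dusp5 and 0.67 for Dusp6, with adjusted p of 0.149 and 0.109 by edgeR. Both calls also ended without WT untreated library 3 (adjusted p of 0.121 and 0.0642 by edgeR), without WT novelty library 3 (0.145 and 0.123), and with only the 2 WT groups in the fit (0.0807 and 0.0765).

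Dusp1, a nuclear phosphatase of ERK, p38 and JNK that is itself an immediate early gene and a target of the glucocorticoid receptor, had 30.2, 24.5 and 24.3 CPM in KO novelty libraries, against 23, 17.6 and 25.2 CPM in untreated KO libraries. These groups overlapped, and the log2 fold change was 0.26 ± 0.20 with an adjusted p of 0.905 by edgeR. In WT mice it had 31.0, 23.1 and 32.9 CPM after novelty, against 10.4, 20.8 and 16.9 CPM untreated. The WT groups did not overlap, but both were wide. The WT log2 fold change of 0.84 ± 0.21 was the largest among the members, with an adjusted p of 0.119 by edgeR, and DESeq2 called it with 0.00711. No neighbouring pair of the 4 groups, ordered by mean, was separated for this gene. The exons of Dusp1 share 11 bases with Ergic1 on the opposite strand, and the sources used here do not give the strand setting of the counting.

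Dusp1, Dusp5 and Dusp6 had the 3 largest log2 fold changes in WT, and the 250 bases before their start sites are shown to set their promoters side by side. The sequences are from RefSeq (GRCm38.p6), each read 5′ to 3′ on the gene's strand. Capitals mark the cyclic AMP response element (CRE) in full, TGACGTCA, or in its short form, TGACG, on either strand, and the CArG box, the site of the serum response factor. They stand at chr17:26508473-26508722 on the minus strand for Dusp1, at chr19:53528895-53529144 on the plus strand for Dusp5 and at chr10:99262981-99263230 on the plus strand for Dusp6.
Dusp1: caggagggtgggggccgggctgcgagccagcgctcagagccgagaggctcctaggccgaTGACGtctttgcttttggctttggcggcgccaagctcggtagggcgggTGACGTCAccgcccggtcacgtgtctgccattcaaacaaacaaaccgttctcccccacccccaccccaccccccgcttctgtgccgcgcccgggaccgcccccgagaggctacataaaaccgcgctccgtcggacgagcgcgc
Dusp5: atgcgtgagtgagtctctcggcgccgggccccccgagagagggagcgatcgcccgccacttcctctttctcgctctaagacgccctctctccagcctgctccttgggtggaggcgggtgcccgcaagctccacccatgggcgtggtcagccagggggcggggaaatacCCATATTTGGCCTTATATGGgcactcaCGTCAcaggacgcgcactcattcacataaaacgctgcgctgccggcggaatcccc
Dusp6: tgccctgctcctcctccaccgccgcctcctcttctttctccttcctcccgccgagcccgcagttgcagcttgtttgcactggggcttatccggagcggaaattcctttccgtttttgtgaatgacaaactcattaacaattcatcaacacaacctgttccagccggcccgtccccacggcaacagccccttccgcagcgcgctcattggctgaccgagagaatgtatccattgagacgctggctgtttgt

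The full CRE was found in 1 of the 6 members with an entry in the promoter table, Dusp1, where it lies 143 to 136 bases before the start and holds the short form on both strands, and in 1.55% of 32851 promoter windows of the same length. The short form was found in 3, Dusp1, Dusp5 and Spred2, against 17.8% of all windows. Dusp5 alone of the 6 held the CArG box, which occurs in 1.47% of all windows, in 2 adjoining copies 82 to 73 and 72 to 63 bases before the start. The AP-1 site TGANTCA (6.75% of all windows) and the EGR site GNGTGGGCG (2.57%) were in none of the 6, and the Dusp6 window held no match to any motif searched. Both strands were searched and full CREs also count as short forms. Dusp4 and Spry4 had no entry. A match describes these letters and does not show that a factor binds there.

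Dusp4, a further nuclear MAPK phosphatase, had 21.6, 22.0 and 24.6 CPM in KO novelty libraries, against 21.2, 14.5 and 16.4 CPM in untreated KO libraries. In WT mice it had 21.7, 26.1 and 23 CPM after novelty, against 15.2, 17.8 and 18.5 CPM untreated. In both genotypes the novelty libraries lay above the untreated ones, in KO by a narrow gap. The log2 fold changes were 0.38 ± 0.13 in KO and 0.46 ± 0.13 in WT, with adjusted p of 0.521 and 0.176 by edgeR.

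Of the Sprouty genes, whose membrane-associated proteins dampen the passage from receptor tyrosine kinases to Ras and Raf, Spry4 had the more separated groups. It had 22.1, 20.3 and 22.6 CPM in KO novelty libraries, against 17.6, 16.4 and 16.9 CPM in untreated KO libraries. The groups did not overlap, and the log2 fold change was 0.35 ± 0.09 with an adjusted p of 0.273 by edgeR. In WT mice Spry4 had 21.3, 19.0 and 21.2 CPM after novelty, against 14.4, 17.0 and 14.1 CPM untreated. Again no novelty library fell as low as an untreated one, and the log2 fold change was 0.43 ± 0.09 with an adjusted p of 0.0610 by edgeR, while DESeq2 called it with 0.00679. The KO and WT novelty groups overlapped, the KO and WT untreated groups overlapped, and the step between novelty and untreated separated them.

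Spry2 had 37.4, 34.2 and 39.1 CPM in KO novelty libraries, against 36.2, 33.7 and 31.1 CPM in untreated KO libraries, with a log2 fold change of 0.13 ± 0.08 and an adjusted p of 0.851 by edgeR. In WT mice it had 37.1, 37.8 and 36.7 CPM after novelty, against 28.0, 33.9 and 30.5 CPM untreated, a change of 0.27 ± 0.08 on the log2 scale with an adjusted p of 0.223 by edgeR. The KO groups overlapped and the WT groups were apart.

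Spred proteins bind neurofibromin, a protein that turns Ras off, and bring it to the membrane. Spred2 had 86.9, 94.9 and 92.9 CPM in KO novelty libraries, against 80.5, 78.5 and 76.7 CPM in untreated KO libraries. In WT mice it had 87.5, 93.9 and 91.7 CPM after novelty, against 81.9, 77.3 and 81.0 CPM untreated. The shift was small and without overlap in both genotypes: 0.22 ± 0.06 on the log2 scale in KO and 0.19 ± 0.06 in WT, with adjusted p of 0.330 and 0.238 by edgeR.

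Spred1 was the one member whose groups overlapped in both genotypes. In KO mice it had 142.1, 172.0 and 145.5 CPM after novelty, against 142.2, 158.1 and 128.4 CPM untreated, and the log2 fold change was 0.10 ± 0.13 with an adjusted p of 0.961 by edgeR. In WT mice it had 117.6, 172.6 and 164.0 CPM after novelty, against 138.8, 112.6 and 120.4 CPM untreated, with a log2 fold change of 0.29 ± 0.13 and an adjusted p of 0.456 by edgeR. The low novelty value belongs to WT novelty library 1. Without that library and KO novelty library 2 the log2 fold change in WT was 0.44, with an adjusted p of 0.0197 by edgeR. KO novelty library 2 is not part of the WT comparison but shares its fit. Leaving out a single library called Spred1 in WT in 0 of 6 fits.

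**Figure D2:**
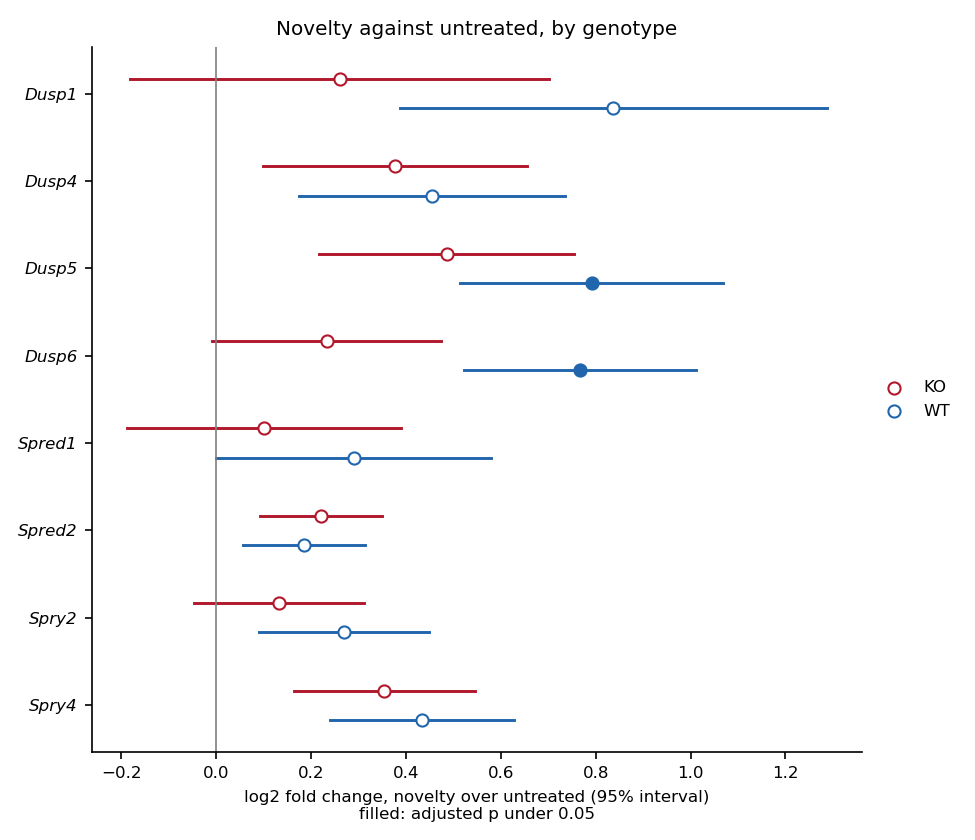
Log2 fold change of each member, novelty over untreated (horizontal axis), with its 95% interval from edgeR, in KO (red, upper) and WT (blue, lower) mice; filled points have an adjusted p under 0.05. All 16 points lie above 0, only Dusp5 and Dusp6 in WT are filled, and the 2 intervals of each gene overlap except for Dusp6.

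The difference between genotypes in the response to novelty was tested directly. In the test of the novelty effect in KO minus that in WT, 0 members and 0 genes were called by edgeR (0% of all genes), 563 genes had an unadjusted p under 0.05, and DESeq2 called 0 genes too. For 7 of the 8 members, all but Spred2, the difference was below 0, against 49.4% of all genes, with a median of -0.16. Dusp6 had the smallest unadjusted p, 0.00503, at a difference of -0.53 ± 0.16 (95% interval -0.88 to -0.19) and an adjusted p of 1.00 by edgeR. For Dusp1 the difference was -0.58 ± 0.29 (interval -1.21 to 0.05) and for Dusp5 -0.31 ± 0.18 (-0.69 to 0.08). The smallest differences were those of Spred2 (0.04 ± 0.08, interval -0.15 to 0.22), Spry4 (-0.08 ± 0.13, -0.35 to 0.19) and Dusp4 (-0.08 ± 0.18, -0.47 to 0.32). Of the 8 members all but Dusp6 had intervals on either side of 0, and these intervals are not adjusted for the number of genes. No library left out and no other setting brought a member under the threshold, and the lowest adjusted p of Dusp6 was 0.0642, without WT novelty library 1 and KO novelty library 2.

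Without novelty, the genotypes were apart for Dusp5 and Dusp6. Dusp5 had the 27.2, 21.5 and 26.0 CPM given above in KO untreated libraries, against 14.9, 21 and 17.1 CPM in WT untreated libraries, and Dusp6 had 66.7, 52.3 and 53.0 CPM against 38, 48.5 and 47.5 CPM. These 2 were the members whose untreated libraries did not overlap, which held in this direction for 11.6% of all genes. The log2 fold changes, KO over WT, were 0.49 ± 0.13 for Dusp5 and 0.36 ± 0.11 for Dusp6, with adjusted p of 0.108 and 0.247 by edgeR, so neither was called. In all, edgeR called 0 members in this comparison and 1.24% of all genes in either direction, while DESeq2 called 1 member, Dusp5, with an adjusted p of 0.0315. Without WT untreated library 1 the log2 fold changes were 0.39 for Dusp5 and 0.26 for Dusp6, and for Dusp6 the value was 0.23 without KO untreated library 1. Dusp1 had a log2 fold change of 0.44 ± 0.21 with overlapping libraries, and the other 5 members lay between -0.03 and 0.21.

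Cell type markers differed in the same untreated libraries, and of 11 marker lists, compared by their summed level in each library, 7 did not overlap between genotypes. Summed levels were higher in KO for excitatory neuron markers (8516 to 8940 CPM in KO, against 7909 to 8072 CPM in WT, with 6 of 6 log2 fold changes above 0) and astrocyte markers (5685 to 5917 CPM in KO, against 4767 to 5286 CPM in WT, 7 of 8 above 0). The same held for markers of CA2 and CA3 (352.0 to 379.5 CPM in KO, against 312.7 to 351.6 CPM in WT, 5 of 7 above 0) and of the choroid plexus (61.2 to 626 CPM in KO, against 39.5 to 47.5 CPM in WT, 8 of 8 above 0), and by a narrow gap for microglia (409.54 to 441.56 CPM in KO, against 406.76 to 409.52 CPM in WT, 4 of 8 above 0). Oligodendrocyte lineage markers were lower in KO (3196 to 3723 CPM in KO, against 4107 to 4511 CPM in WT, 2 of 11 above 0), as were those of inhibitory neurons (625 to 694 CPM in KO, against 705 to 785 CPM in WT, 1 of 8 above 0). In this comparison edgeR called none of the markers, and DESeq2 called Ttr and Kl of the choroid plexus higher, and Mbp, a myelin gene, and Tdo2 of the dentate gyrus list lower. By the mean log2 CPM of each list, the untreated genotypes overlapped for CA2 and CA3 (5.03 to 5.15 in KO, against 4.96 to 5.14 in WT). They also overlapped for microglia (5.12 to 5.16 in KO, against 5.13 to 5.17 in WT) and choroid plexus (0.92 to 3.44 in KO, against 0.51 to 1.14 in WT). The part of these markers in the values of Dusp5 and Dusp6 was not tested.

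Of all genes in the 11 pathway lists, edgeR called 1 between untreated genotypes, while it called 1.24% of all tested genes in either direction. The gene was Sgk1, a kinase gene of the glucocorticoid response list. It had 114.7, 111.1 and 94.1 CPM in untreated KO libraries, against 80.3, 77.3 and 89.1 CPM in untreated WT libraries, without overlap. The log2 fold change was 0.37 ± 0.08, with an adjusted p of 0.0457 by edgeR, and DESeq2 called it too.

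After novelty the genotypes overlapped for all 8 members. None was called by edgeR or DESeq2, with 1.34% of all genes called by edgeR, and none had an unadjusted p under 0.05. The log2 fold changes, KO over WT, ran from -0.17 ± 0.11 for Dusp6 to 0.19 ± 0.12 for Dusp5, with a median of -0.00. In the same libraries 1 of the 11 marker lists did not overlap by summed level, the astrocyte markers, at 5484 to 5576 CPM in KO, against 4505 to 5353 CPM in WT. By mean log2 CPM the CA2 and CA3 markers did not overlap either, at 5.03 to 5.11 in KO, against 5.16 to 5.25 in WT. Of all markers edgeR called 1, Plk5 of the dentate gyrus list, lower in KO. DESeq2 called Plk5 and Iyd, the latter of the CA2 and CA3 list, lower in KO, and Gfap of the astrocyte list higher. The untreated and novelty comparisons use different libraries, whereas the KO untreated and WT untreated libraries enter both the genotype comparison and the test of the difference in response.

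**Figure D3:**
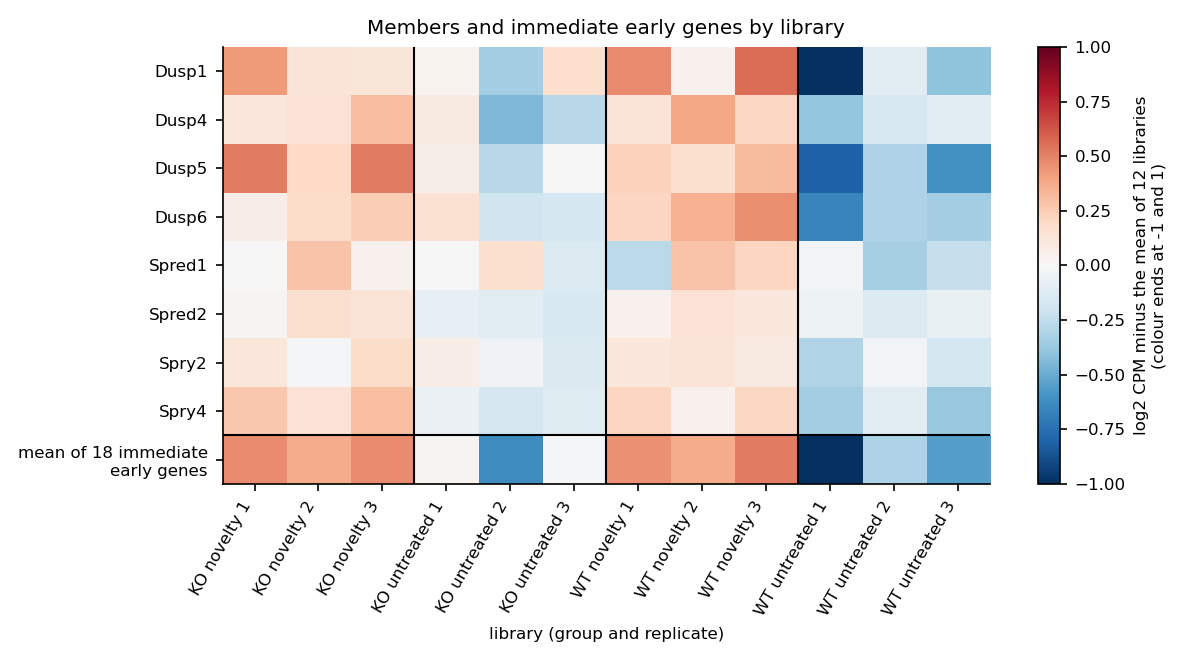
Log2 CPM of each member minus its mean over the 12 libraries of the KO line (colour, ending at -1 and 1), with the mean of 18 immediate early genes in the last row. The columns are libraries by group and replicate. WT untreated library 1 is the deepest blue of its row for Dusp1, Dusp5, Dusp6 and Spry2 and is the lowest for the immediate early genes, whose level in KO untreated libraries 1 and 3 lies above that of all WT untreated libraries.

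Immediate early genes also differed among untreated libraries. Averaged over 18 such genes, the level was 5.34, 4.69 and 5.30 log2 CPM in untreated KO libraries, against 4.12, 5.01 and 4.77 log2 CPM in untreated WT libraries. After novelty it was 5.79, 5.69 and 5.79 log2 CPM in KO and 5.77, 5.69 and 5.83 log2 CPM in WT, a narrow range. KO untreated library 2, the low one of its group, also had the lowest untreated KO values of Dusp1, Dusp4, Dusp5, Dusp6 and Spry4, and it is the library with high choroid plexus markers. Beyond leaving libraries out, the part of these library differences in the results on the 8 genes was not tested.

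Markers of other cell types moved with novelty too. In KO mice 1 of the 11 lists had groups without overlap by summed level, the astrocyte markers. They summed to 5484 to 5576 CPM after novelty, against 5685 to 5917 CPM untreated, with 3 of 8 log2 fold changes above 0. By mean log2 CPM the KO astrocyte groups overlapped (7.72 to 7.87 after novelty, 7.82 to 7.89 untreated). Inhibitory neuron markers in KO did not overlap by that measure (5.646 to 5.915 after novelty, 5.523 to 5.644 untreated). Choroid plexus markers in KO summed to 36.4 to 61.7 CPM after novelty, against 61.2 to 626 CPM untreated, with 0 of 8 above 0.

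In WT mice 4 of the 11 lists had groups without overlap by summed level. By mean log2 CPM the excitatory neuron groups overlapped (9.31 to 9.38 after novelty, 9.22 to 9.35 untreated). Excitatory neuron markers were higher, at 8471 to 8936 CPM after novelty, against 7909 to 8072 CPM untreated, with 6 of 6 log2 fold changes above 0. Markers of the CA2 and CA3 fields summed to 361.7 to 371.1 CPM after novelty, against 312.7 to 351.6 CPM untreated, with 6 of 7 above 0. Oligodendrocyte lineage markers were lower, at 3509 to 3967 CPM after novelty, against 4107 to 4511 CPM untreated, with 0 of 11 above 0. Endothelial and mural markers also were lower in all WT novelty libraries, at 294 to 347 CPM, against 385 to 415 CPM untreated, with 0 of 10 above 0. Within a genotype edgeR called no marker of the 11 lists and DESeq2 called 1, Cldn5, a gene of endothelial tight junctions, lower in WT. Over both genotypes edgeR called Cldn5, which fell by 0.53 ± 0.10 on the log2 scale (adjusted p of 0.0142), and DESeq2 called Cldn5 and Pdgfrb, both lower. None of the markers of these lists, blood apart, was at 0 in any library. The part of these markers in the changes of the 8 genes was not tested.

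Of the gene lists around the pathway, immediate early genes had the highest median log2 fold changes after novelty, while in KO the glucocorticoid response genes had the larger share of calls. In KO mice 3 of 18 rose by edgeR, Fosb by 1.5 ± 0.23 on the log2 scale (adjusted p of 0.0329), Fosl2 by 0.87 ± 0.09 (0.00184) and Nr4a2 by 0.73 ± 0.12 (0.0363), and the list's median was 0.58. In WT mice 9 of 18 rose, among them Egr2 by 2.60 ± 0.36 (adjusted p of 0.00973), Fosb by 2.05 ± 0.25 (0.00487), Egr1 by 1.14 ± 0.20 (0.0345) and Klf4 by 1.10 ± 0.21 (0.0469), with a median of 1.01. The genes named here encode transcription factors. DESeq2 called 6 of the list in KO and 12 in WT. Over both genotypes 14 of 18 rose by edgeR, with Egr2 (1.79 ± 0.24, adjusted p of 0.00269), Fosb (1.77 ± 0.17, 0.000255), Fos (1.36 ± 0.24, 0.0138) and Egr4 (1.03 ± 0.22, 0.0387) at the top. The difference of the novelty effects, KO minus WT, was below 0 for 15 of the 18, none of them called.

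Genes known to respond to glucocorticoids, hormones released under stress, formed the other list with several calls. In KO mice 4 of 10 rose by edgeR, namely Cdkn1a (0.82 ± 0.11, adjusted p of 0.0123), Tsc22d3 (0.82 ± 0.11, 0.0123), Sgk1 (0.54 ± 0.08, 0.0329) and Errfi1 (0.51 ± 0.07, 0.0145). In WT mice 5 of 10 rose, Tsc22d3 by 0.72 ± 0.11 (adjusted p of 0.0149), Cdkn1a by 0.71 ± 0.11 (0.0193), Sgk1 by 0.66 ± 0.08 (0.00585), Per1 by 0.65 ± 0.12 (0.0352) and Errfi1 by 0.60 ± 0.07 (0.00487). The median of this list was 0.49 in KO and 0.44 in WT, and DESeq2 called 5 of 10 in each genotype. Over both genotypes 6 of 10 rose by edgeR.

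Errfi1, also called Mig6, is at the same time a brake: its protein binds and inhibits the EGF receptor. It had 71.3, 72.4 and 70.1 CPM in KO novelty libraries, against 52.3, 48.9 and 49.2 CPM in untreated KO libraries. In WT mice it had 65.9, 65.4 and 69.0 CPM after novelty, against 40.7, 48.5 and 43.2 CPM untreated. The groups were far apart in both genotypes, and it was the one gene called by edgeR in either among 14 other brakes on receptor and Ras signalling, a list that also holds Nf1, Cbl and Rasa1. DESeq2 called Errfi1 in both genotypes and, in WT, also Cbl, a ubiquitin ligase for receptors, whose log2 fold change in WT was 0.39 ± 0.09 with an adjusted p of 0.0904 by edgeR. Across both genotypes Errfi1 rose by 0.55 ± 0.05 on the log2 scale, with an adjusted p of 0.000255 by edgeR.

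Among the close relatives of the members there were no calls in either genotype by edgeR or DESeq2. Of 6 other MAPK phosphatases (Dusp2, Dusp7, Dusp8, Dusp9, Dusp10 and Dusp16) 0 passed, 1 had an unadjusted p under 0.05 in each genotype, and the medians were 0.04 in KO and 0.02 in WT. Dusp2 and Dusp9 had the widest values, Dusp2 with 0.04 ± 0.29 in KO and -0.91 ± 0.36 in WT, and Dusp9 with -1.10 ± 0.48 in KO and -0.89 ± 0.42 in WT. Both genes were near the floor, with highest group means in the KO line of 0.96 CPM for Dusp2 and 0.68 CPM for Dusp9. DESeq2 gave an adjusted p for only 5 of the 6 phosphatases in KO and 4 of the 6 in WT. Of the 3 further family members Spry1, Spry3 and Spred3, 0 passed and 1, Spred3 in WT, had an unadjusted p under 0.05. Their log2 fold changes ran from -0.15 to 0.05 in KO and from -0.02 to 0.16 in WT. The difference between these relatives and the members was not tested.

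Upstream and downstream parts of the pathway had no calls by edgeR in either genotype alone. These lists were 12 ligands, 10 tested receptors, 23 genes of the Ras to ERK cascade, 8 kinases of the p38, JNK and ERK5 branches, 11 ERK effectors and 6 further ERK output genes (Ccnd1, Epha2, Epha4, Etv4, Etv5 and Phlda1). In KO, unadjusted p under 0.05 were found for 1 ligand, 2 receptors, 3 effectors and 0 genes of the other lists. In WT they were found for 4 ligands, 2 receptors, 1 cascade gene, 3 effectors and 2 output genes, and DESeq2 called Bdnf and Mknk2 higher there. The list medians lay between -0.02 and 0.15. With both genotypes together edgeR called 2 effectors, which rose: Mknk2, a kinase that ERK activates, by 0.29 ± 0.06 on the log2 scale (adjusted p of 0.0479), and Srf, the serum response factor, by 0.24 ± 0.05 (0.0478). Egf, a ligand, fell by 0.70 ± 0.15 (adjusted p of 0.0428).

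**Figure D4:**
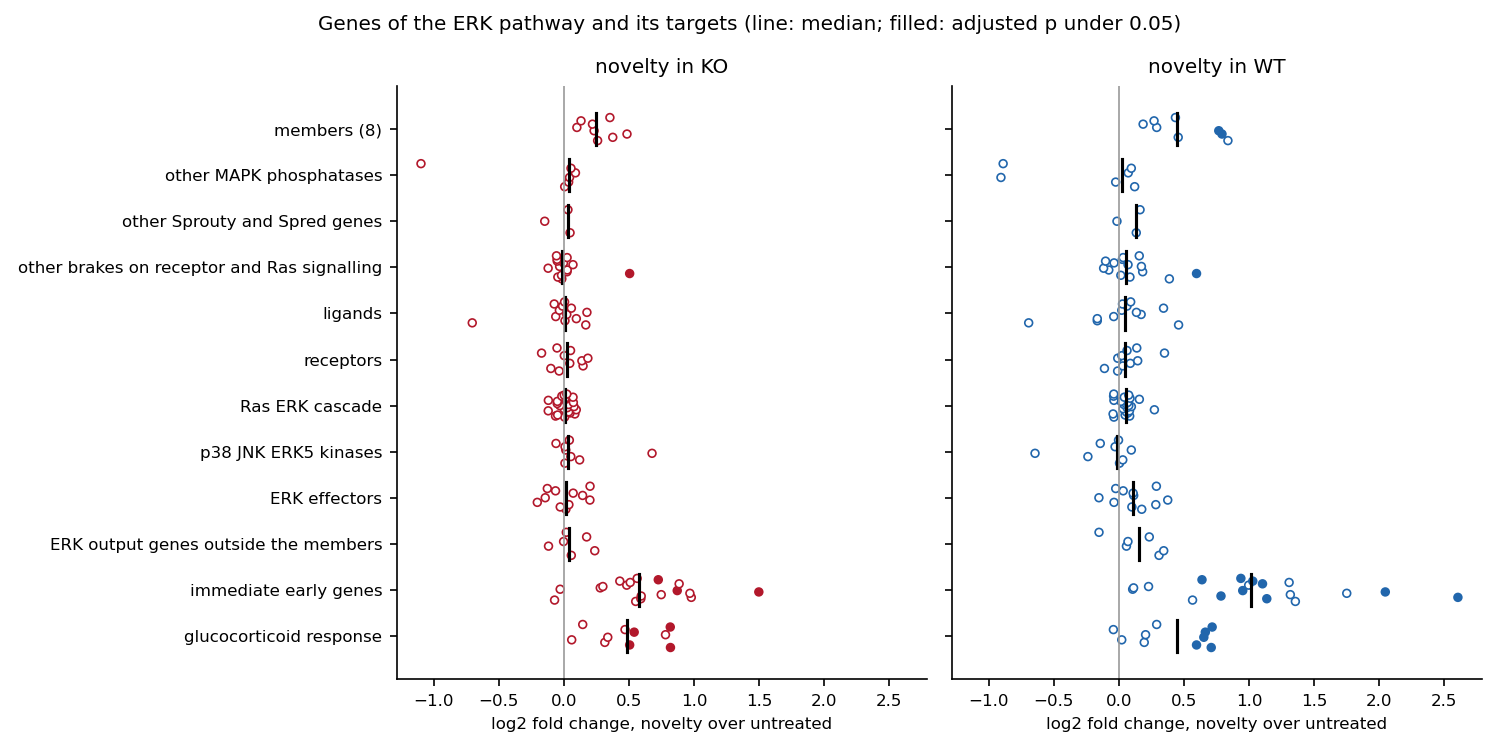
Log2 fold change, novelty over untreated (horizontal axis), of the 8 members and of 11 lists of pathway and response genes in KO (left, red) and WT (right, blue) mice. Each point is a gene, filled at an adjusted p under 0.05, and the black line is the list's median; the members' medians are 0.25 in KO and 0.44 in WT, between those of the cascade genes, at 0.01 and 0.06, and those of the immediate early genes, at 0.58 and 1.01.

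The genes whose levels ran most alike with the called members over the 12 libraries of the KO line were named by Pearson's r of log2 CPM among 10640 genes, as a description only, since the libraries share the same step from untreated to novelty. For Dusp5 these were Per1 (r = 0.97), Trib1 (0.96) and Nr4a1 (0.95). For Dusp6 they were Tet3 (0.95), Zbtb2 (0.94) and Egr2 (0.94). Spry4 ran most like Jade2 (0.98), Errfi1 (0.96) and Alkbh5 (0.95), Spred2 like Sik2 (0.93), Nr4a2 (0.91) and Chka (0.91), and Dusp4 like Acvr1 (0.94), Gmppb (0.93) and Zhx2 (0.93). The lists for Dusp5, Dusp6 and Spred2 each hold an immediate early transcription factor gene, and those for Dusp5 and Spry4 each hold a glucocorticoid response gene.

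In the inducible line no member was called in ifKO against control, with 0.645% of 17367 genes called in either direction, and none had an unadjusted p under 0.05 in edgeR's test; DESeq2 called 0 as well. Dusp6 had 50.0, 40.5 and 40.6 CPM in ifKO libraries, against 43.6, 40.1 and 40.7 CPM in control libraries, a log2 fold change of 0.08 ± 0.07 (95% interval -0.09 to 0.24). Dusp5 had 21.8, 13.2 and 14.8 CPM in ifKO libraries, against 14.8, 12.2 and 14.9 CPM in control libraries, and its log2 fold change of 0.25 ± 0.15 (-0.08 to 0.59) was the largest of the 8. The groups overlapped for both genes and for the other 6 members, whose log2 fold changes lay between -0.08 and 0.03. ifKO library 1 had the highest level of 6 of the 8 members among the 6 libraries of this line, and without it the log2 fold change of Dusp5 was 0.00. Its immediate early genes averaged 4.76 log2 CPM, against 4.13 and 4.15 in the other ifKO libraries and 4.13 to 4.39 in control libraries.

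**Figure D5:**
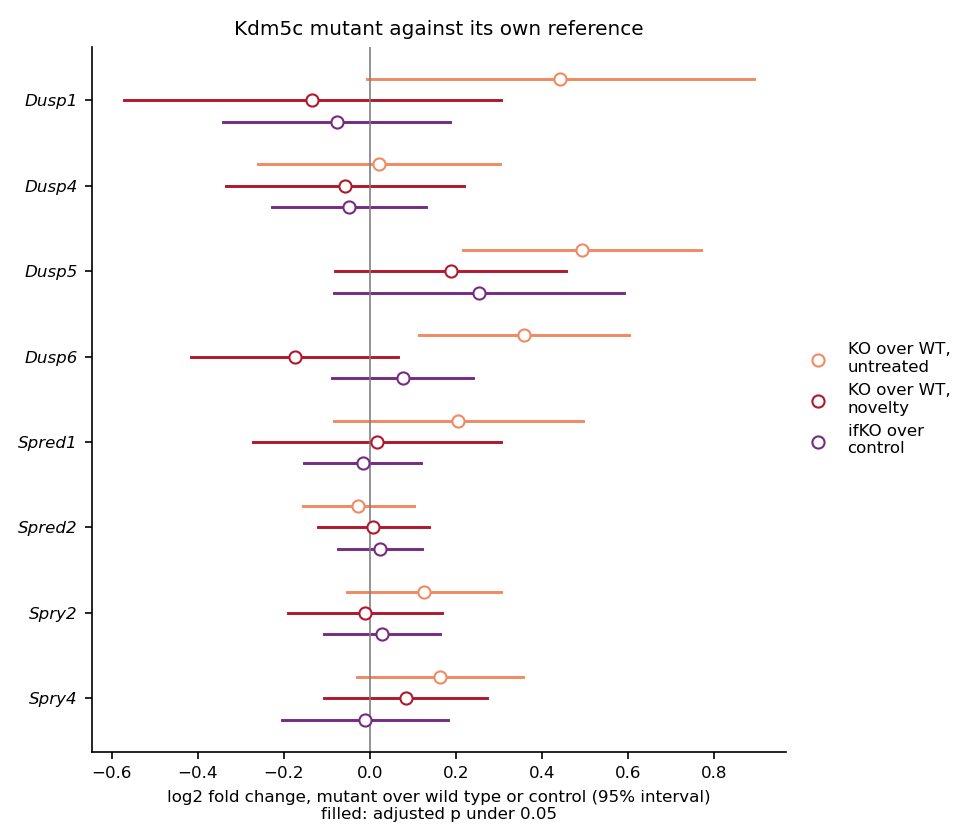
Log2 fold change of each member in a Kdm5c mutant over its own wild-type or control group (horizontal axis), with 95% intervals from edgeR: KO over WT untreated (orange), KO over WT after novelty (red) and ifKO over control (purple). No point is filled, as no adjusted p was under 0.05; Dusp5 and Dusp6 in untreated KO mice are those whose intervals lie wholly above 0.

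The effect in ifKO minus the effect in untreated KO was tested in a fit of all 18 libraries. It was called by edgeR for 0 of 8 members and 0.114% of 17508 genes, 0 members had an unadjusted p under 0.05, and DESeq2 called 0 members. Differences ran from -0.52 ± 0.28 for Dusp1 to 0.05 ± 0.08 for Spred2, and for Dusp5 and Dusp6 they were -0.24 ± 0.23 (95% interval -0.72 to 0.23) and -0.29 ± 0.16 (-0.61 to 0.04). The lines differ in background, read layout and flowcell as well as in the kind of deletion, so a difference in level between them cannot be told apart from these.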

How the data were processed

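mRNA of the hippocampus was counted in 18 libraries. Per the labels, stranded libraries were read as single ends of 50 nt in the KO line and as pairs of 75 nt in the inducible line, on separate flowcells, and the extraction text speaks of cultures although the tissue is given as hippocampus. The 24 sample records describe 18 libraries, as each inducible library has a record for either read. The deposited values are raw counts per Ensembl gene. The tools named, per the submitters' processing notes, are STAR (2.5.0c), DESeq2, HTSeq (0.6.1) and SAMtools (1.3), with build GRCm38. The sources used here do not give the annotation release. Summary lines were left out: 14.7 to 17.2% of reads lay in no feature and 0.765 to 1.06% were ambiguous. Of 47069 identifiers, 46574 were given a symbol from GENCODE M21, and exon lengths came from it.

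Counts were tested in R 4.3.3 with edgeR 4.0.16 (TMM, filterByExpr with a minimum count of 10 and a total of 15, quasi-likelihood test, Benjamini-Hochberg adjustment over all tested genes, threshold 0.05). The 12 KO-line libraries, the 6 inducible-line libraries and all 18 were each fitted once. Fold changes use a prior count of 0.125 and CPM use TMM factors. Named were all 8 members, at most 4 genes in each direction of a pathway list (adjusted p under 0.05, at least 1 CPM), and the 3 genes most alike in level (mean log2 CPM of at least 3) to each called member. Other pathway genes were named after their values were seen. Members and lists were chosen with earlier results of these data known. Alternatives were DESeq2 1.42.0, RLE factors, no filter, a replicate block, a stricter filter (1 CPM in 3 libraries), fits of only the groups compared, offsets for GC content and length, omission of 2 deviating novelty libraries, and omission of each library. The edgeR tests of novelty in WT and of ifKO against control were also run on simulated counts without deviating libraries. The other comparisons were not simulated.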

Additional observations from a re-analysis of the deposited data

How the results depend on the processing

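Of 984 values of single members under alternatives, 0 changed sign as a called value, and 30 values that were called in neither fit changed sign. The members' calls depended on the setting as follows, with the number of members called in WT after novelty (2 as reported), in KO after novelty (0), over both genotypes (5) and in untreated KO against WT (0) given where it moved by over 1.5 times. Without a low-count filter it was 5 in WT, 1 in KO (Dusp5) and 2 in untreated KO (Dusp5 and Dusp6). With offsets for GC content and transcript length it was 5 in WT, 8 over both genotypes and 1 in untreated KO (Dusp5). DESeq2 gave 4 in WT and 1 in untreated KO. With only the groups compared it was 0 in WT, and without WT novelty library 1 and KO novelty library 2 it was 4 in WT. Leaving out 1 library at a time gave 0 to 3 in WT and 3 to 5 over both genotypes. In the other comparisons no alternative called a member.

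Counts of all genes called moved further. After novelty in WT (63) they were 252 without a filter, 309 with offsets (231 higher and 78 lower, against 57 and 6), 218 with DESeq2, 6 with only the groups compared, 451 without both deviating libraries and 4 to 102 without 1 library, lowest without WT novelty library 3. After novelty in KO (18) they were 101, 55, 68, 10, 63 and 1 to 10 in the same order, with 1 left without any of 3 libraries. Over both genotypes (222) they were 415, 645 (412 higher and 233 lower, against 175 and 47), 422 with DESeq2, 454 without both libraries and 91 to 298 without 1 library. The difference of the novelty effects (0) had 8 called genes without a filter and 331 without both libraries, none of them a member. Untreated KO against WT (204) had 347 without a filter, 343 with offsets, 318 with only the groups compared and 121 to 149 without 1 library. After novelty KO against WT (219) had 358 with offsets, 104 with only the groups compared, 705 without both libraries and 144 to 282 without 1 library. For ifKO (112) they were 398 without a filter and 56 to 102 without 1 library, and for the difference between the mutants (20) 83 without a filter, 37 with offsets and 44 with DESeq2. The causes were not tested.

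Over 18 same-numbered pairs of KO-line libraries, r between their deviations ran from -0.25 to 0.30, with 2 over 0.1. Over 36 pairs with unlike numbers it ran from -0.31 to 0.22, with 11 over 0.1. Deviations within a group of 3 libraries are tied to each other, so these values cannot exclude a pairing by number. With the replicate block 33 genes were called in WT, 6 in KO, and 3 members over both genotypes, as Dusp4 (adjusted p of 0.0779) and Spred2 (0.0707) were no longer called by edgeR. With 3 pools per group, the SE printed beside each change sets what could be detected, and the comparison of ifKO with control rests on 6 libraries.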
